A study of Mus musculus with 4 samples.

Results

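Glycogen is a branched store of glucose, and the 9 genes described here encode enzymes that build it and break it down, with one protein that steers its regulation. They are Gyg, Pgm1, Pgm2, Ugp2, Gys1, Gbe1, Pygl, Pygb and Ppp1r3c, taken by symbol from the 32285 genes of the count tables in all 4 libraries. Cells came from embryoid bodies, which are aggregates of differentiating pluripotent cells, here grown from R1, a line of mouse embryonic stem cells. Single-cell libraries were made with a droplet method that counts transcripts at their 3′ ends by unique molecular identifiers (UMIs). One library was made per group. The first hypoxic group had 7.33 days in normoxia and then 16 h in hypoxia, and was harvested at day 8. Its control had 8 days in normoxia. The second hypoxic group had 8 days in normoxia and then 48 h in hypoxia, and was harvested at day 10. Its control had 10 days in normoxia. All groups share the one cell line, and the sources used here do not give the oxygen level.

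In the textbook pathway, phosphoglucomutase turns glucose 6-phosphate into glucose 1-phosphate, and UDP-glucose pyrophosphorylase makes UDP-glucose from it. Glycogenin starts a chain, glycogen synthase lengthens it and the branching enzyme adds branches, while glycogen phosphorylase releases glucose 1-phosphate again. Several cell types are known to store glycogen under hypoxia, and glycogen synthase, the branching enzyme and PP1 regulatory subunits have been described as responsive to hypoxia-inducible factors (HIF) in cell culture.

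HIF is known to bind short elements with the core ACGTG or GCGTG. These letters were therefore searched, on both strands, in the 250 bases before each RefSeq transcript start (build GRCm38.p6). Of 32851 such windows of mouse genes, 38.6% held at least 1 match, 16.7% at least 2 and 6.58% at least 3. All 9 genes matched the promoter table, with 10 windows, because Ugp2 has a pair of starts, and 7 of the 10 windows held a match. The windows below were chosen because their genes carry the differences described next, with the matches in capitals on the gene's own strand (CACGT and CACGC are the reverse complements). They are Gys1 (chr7:45434589-45434838, + strand), Gbe1 (chr16:70313699-70313948, + strand), Pgm1 (chr4:99929201-99929450, + strand), Pgm2 (chr5:64092689-64092938, + strand), Pygl (chr12:70227684-70227933, − strand), Ppp1r3c (chr19:36736605-36736854, − strand) and the outer start of Ugp2 (chr11:21371268-21371517, − strand).
Gys1: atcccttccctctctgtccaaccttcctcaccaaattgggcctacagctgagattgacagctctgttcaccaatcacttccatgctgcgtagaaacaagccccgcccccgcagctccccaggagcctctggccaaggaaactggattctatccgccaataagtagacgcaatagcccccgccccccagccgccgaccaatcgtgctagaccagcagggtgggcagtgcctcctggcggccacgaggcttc
Gbe1: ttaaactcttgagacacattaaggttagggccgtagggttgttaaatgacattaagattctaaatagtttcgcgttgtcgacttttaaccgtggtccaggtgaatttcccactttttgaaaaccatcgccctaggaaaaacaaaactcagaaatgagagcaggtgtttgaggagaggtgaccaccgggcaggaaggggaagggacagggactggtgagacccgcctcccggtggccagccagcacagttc
Pgm1: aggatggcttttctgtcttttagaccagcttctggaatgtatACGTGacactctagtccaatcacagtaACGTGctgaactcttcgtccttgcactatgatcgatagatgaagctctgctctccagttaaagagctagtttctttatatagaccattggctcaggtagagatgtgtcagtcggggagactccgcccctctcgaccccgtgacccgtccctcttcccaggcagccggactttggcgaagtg
Pgm2: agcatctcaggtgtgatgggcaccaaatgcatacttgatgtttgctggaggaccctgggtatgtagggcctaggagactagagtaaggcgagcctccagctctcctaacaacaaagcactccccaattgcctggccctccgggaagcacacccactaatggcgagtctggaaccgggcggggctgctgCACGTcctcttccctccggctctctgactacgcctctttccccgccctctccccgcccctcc
Pygl: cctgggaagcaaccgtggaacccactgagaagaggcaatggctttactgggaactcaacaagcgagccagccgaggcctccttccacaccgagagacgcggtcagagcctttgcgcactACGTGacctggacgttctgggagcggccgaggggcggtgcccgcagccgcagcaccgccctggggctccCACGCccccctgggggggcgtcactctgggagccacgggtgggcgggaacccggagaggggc
Ppp1r3c: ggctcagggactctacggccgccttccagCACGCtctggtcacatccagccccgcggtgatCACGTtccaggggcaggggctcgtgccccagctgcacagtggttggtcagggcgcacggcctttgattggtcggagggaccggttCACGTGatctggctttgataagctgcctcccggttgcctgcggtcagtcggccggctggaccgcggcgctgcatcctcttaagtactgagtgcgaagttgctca
Ugp2: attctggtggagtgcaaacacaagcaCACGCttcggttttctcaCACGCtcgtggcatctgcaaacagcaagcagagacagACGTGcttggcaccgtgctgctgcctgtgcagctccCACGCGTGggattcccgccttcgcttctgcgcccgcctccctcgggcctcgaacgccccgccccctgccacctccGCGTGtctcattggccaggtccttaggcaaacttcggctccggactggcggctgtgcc
The windows of Gys1 and Gbe1 held 0 matches. Pgm1 held 2, which begin at −208 and −181 from the start, Pgm2 held 1, which begins at −62, and Pygl held 2, which begin at −131 and −62. Ppp1r3c held 4, of which 2 overlap as the 2 strands of 1 palindrome, CACGTG. Ugp2 held 6 in the window shown, of which 2 overlap in the run CACGCGTG, and 0 in the window of its other start. At least 5 matches stood in 1.01% of all windows. Gyg held 1 match and Pygb held 2. A match is only a run of letters, and its absence says nothing about sites elsewhere in the gene.

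After filtering, the libraries held 3344 cells in hypoxia and 3163 in normoxia at day 8, and 4615 cells in hypoxia and 2670 in normoxia at day 10, with 62221875 to 84709052 UMIs per library. Cells of the 48 h hypoxic library held fewer UMIs (median 12800, against 18838.5 to 23034 in the others), and 30.3% of its UMIs came from ribosomal protein genes, against 19.1% to 21.4%. Levels are UMIs summed over the cells of a library and given as counts per 1000000 of all its UMIs (CPM). Ratios are log2 of CPM + 1 unless called plain, and intervals are 95% intervals that cover counting error only. With 1 library per group there is no replicate check and no p-value, and "rose" or "fell" means a difference of at least 1.5-fold between these libraries. As a check of the labels, Slc2a1, a glucose transporter, had 798 CPM in 16 h hypoxia, against 345 CPM in normoxia, and 936 CPM in 48 h hypoxia, against 190 CPM in normoxia. Egln3, an oxygen sensor induced by HIF, had 62.2 and 65.9 CPM in the hypoxic libraries of day 8 and day 10, against 7.22 and 11.7 CPM in their normoxic controls. Pdk1, a kinase of pyruvate dehydrogenase, had 98.7 CPM at 16 h of hypoxia, against 26.7 CPM in normoxia, and 47.8 CPM at 48 h, against 26.7 CPM. All 3 were thus higher in hypoxia at both ages.

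After 16 h of hypoxia, transcripts of the chain-lengthening and branching steps were far more abundant than in normoxia of the same age. Gys1 and Gbe1 were about 5 times as high and Pgm1 nearly 3 times as high, while the other members above 5 CPM differed by less than 1.5-fold. Of the 7 members that averaged 5 CPM or more across the libraries, 3 rose and 0 fell. Each of the 7 was above 5 CPM in every library, so none was counted through a single group. Over all 10599 genes above the same level, 4.59% were higher and 10.0% lower by at least 1.5-fold. The median ratio was 0.13 over the 7 members and −0.11 over all genes.

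Gys1 encodes the glycogen synthase of muscle and most other tissues. It lies on chromosome 7 at 45434844 to 45456619 (mm10, + strand). It had 98.5 CPM in 16 h hypoxia (interval 96.3 to 101, from 7682 UMIs), against 18.3 CPM in normoxia of day 8 (17.4 to 19.3, from 1554 UMIs). The day 10 libraries had 20.7 CPM in 48 h hypoxia and 20.8 CPM in normoxia. The 16 h hypoxic library stood alone, and the other 3 lay close together. The log2 ratio at day 8 was 2.36, a plain ratio of 5.37 (5.08 to 5.67). Counted per 100 cells, 230 UMIs stood in 16 h hypoxia against 49.1 in normoxia. The gene overlaps Ruvbl2 on the other strand over 3253 bases, and the sources used here do not say whether the counting used strand. Ruvbl2 itself had 62.2 CPM in 16 h hypoxia and 55.0 CPM in normoxia, so it differed far less.

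Gbe1, the branching enzyme (chromosome 16, 70313949 to 70569716, + strand), showed the same order of libraries at day 8. It had 126 CPM in 16 h hypoxia (123 to 128), against 26.4 CPM in normoxia (25.3 to 27.5). Its log2 ratio was 2.21, a plain ratio of 4.76 (4.55 to 4.99). Gys1 and Gbe1 thus stood out together in 1 library of the 4, and both have promoter windows with 0 of the searched letters.

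Among the genes that supply UDP-glucose, the pattern was mixed. Pgm1, the main phosphoglucomutase (chromosome 4, 99929414 to 99987294, + strand), had 234 CPM in 16 h hypoxia, against 83.5 CPM in normoxia. The log2 ratio was 1.47, a plain ratio of 2.80 (2.72 to 2.88). It shares 400 bases with Itgb3bp on the opposite strand, which had 30.9 CPM in 16 h hypoxia and 45.6 CPM in normoxia. Symbols of the mouse genes Pgm1 and Pgm2 have been exchanged between annotations, and here Pgm1 is the gene on chromosome 4 and Pgm2 the one on chromosome 5 (64092950 to 64128351, + strand). Pgm2, known in human mainly as a phosphopentomutase, had 13.8 CPM in 16 h hypoxia and 13.5 CPM in normoxia, a log2 ratio of 0.03. Ugp2, the UDP-glucose pyrophosphorylase (chromosome 11, 21321138 to 21371201, − strand), had 67.2 CPM in 16 h hypoxia and 96.5 CPM in normoxia. Its log2 ratio of −0.52, a plain ratio of 0.696 (0.673 to 0.721), was lower in hypoxia but short of 1.5-fold. Gyg, the glycogenin that primes a chain (chromosome 3, 20122084 to 20155317, − strand), had 32.1 CPM in 16 h hypoxia and 34.2 CPM in normoxia. Neither Pgm2 nor Gyg came near 1.5-fold at day 8.

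The phosphorylases behaved unlike each other. Pygl, known as the liver isoform (chromosome 12, 70190811 to 70231488, − strand), is a low gene, with 6.54 CPM in 16 h hypoxia (5.98 to 7.13, from 510 UMIs), against 1.95 CPM in normoxia (1.66 to 2.27, from 165 UMIs). Its log2 ratio was 1.35, a plain ratio of 3.36 (2.81 to 4.02). Pygb, known as the brain isoform (chromosome 2, 150786735 to 150831758, + strand), had 53.3 CPM in 16 h hypoxia and 48.6 CPM in normoxia, a log2 ratio of 0.13. Only Pygl of the pair passed 1.5-fold at day 8. Ppp1r3c, a subunit that brings protein phosphatase 1 to glycogen (chromosome 19, 36731731 to 36736653, − strand), had 4.95 CPM in 16 h hypoxia, against 2.36 CPM in normoxia. Its log2 ratio was 0.82, a plain ratio of 2.10 (1.76 to 2.50). Pygl and Ppp1r3c lie below a mean of 5 CPM and stand outside the count of 7. Both fell short of 1.5-fold in the ratio with a pseudocount of 10 CPM (0.47 for Pygl and 0.27 for Ppp1r3c).

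**Figure D1:**
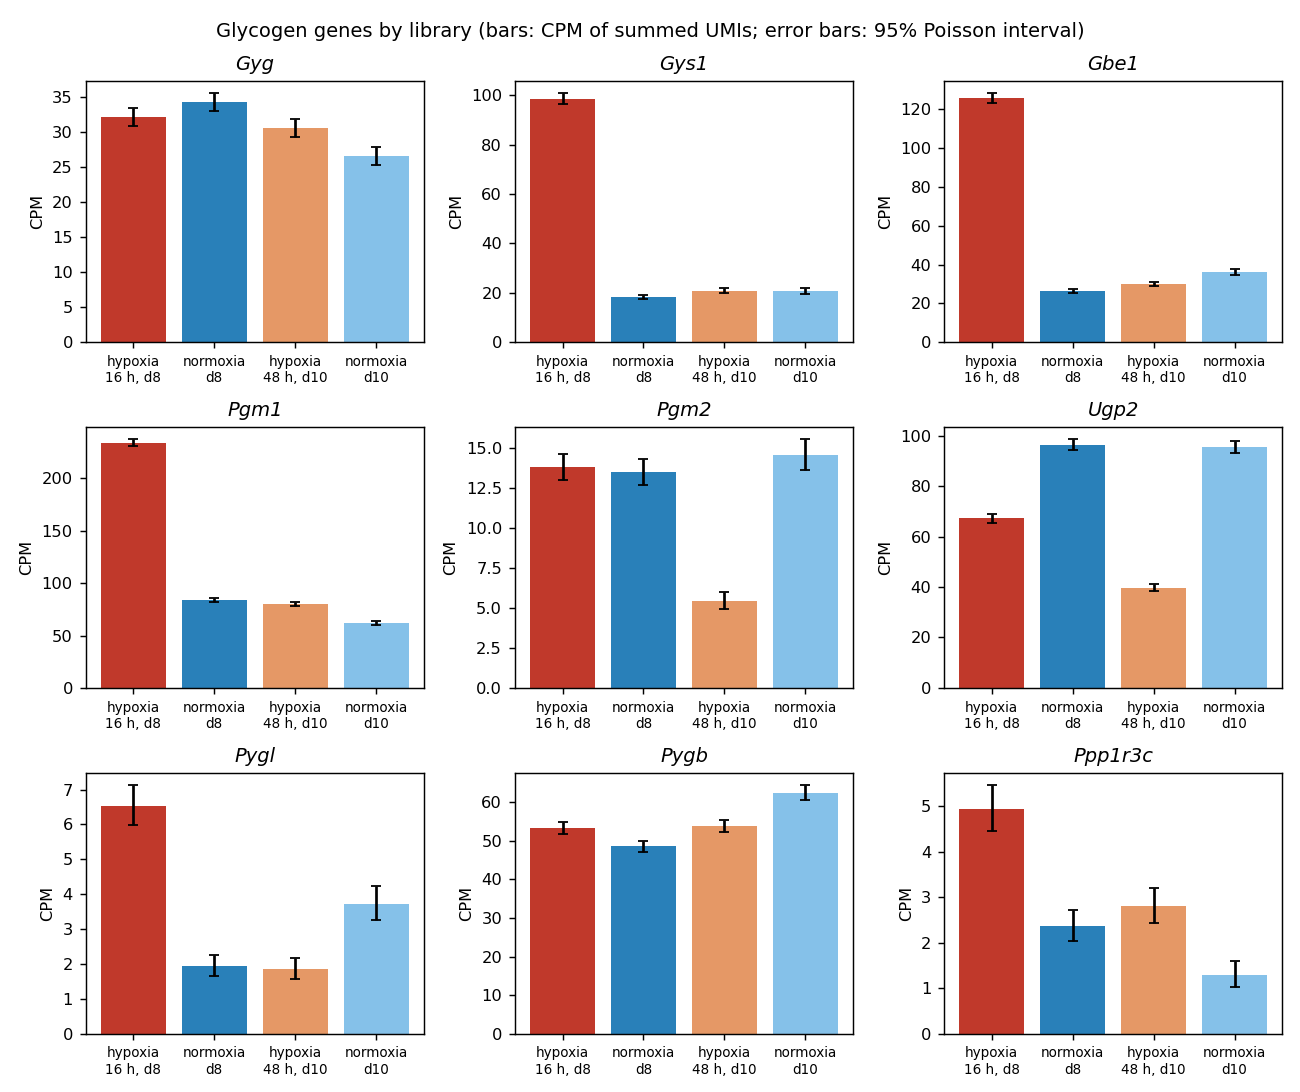
Level of each of the 9 glycogen genes in the 4 libraries, in CPM of summed UMIs (each panel has its own vertical axis from 0), with error bars for the 95% Poisson interval. The 16 h hypoxic bar stands above the other 3 for Gys1 (98.5 CPM, against 18.3 to 20.8 CPM), Gbe1, Pgm1, Pygl and Ppp1r3c. Ugp2 and Pgm2 are lowest in the 48 h hypoxic library.

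After 48 h of hypoxia the raised levels of Gys1 and Gbe1 were not seen in the library totals. The members above 5 CPM that stood apart were lower. Of the 7 members above 5 CPM, 0 rose and 2 fell, namely Pgm2 and Ugp2. Over all 10599 genes, 10.4% were higher and 44.1% lower by at least 1.5-fold, and the median ratio of all genes was −0.46, so a count of 2 lower members out of 7 lies near the background. The median over the 7 members was −0.21. Scaling with TMM factors moved the median of all genes by 0.48 at day 10 and by 0.22 at day 8, and the ratios below are read against that shift.

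Gys1 had 20.7 CPM in 48 h hypoxia (19.7 to 21.8) and 20.8 CPM in normoxia of day 10 (19.6 to 21.9), a log2 ratio of −0.00 that became 0.48 with TMM factors and −0.40 when every cell weighed equally. Per 100 cells it had 34.5 UMIs in hypoxia and 48.4 in normoxia, where the mean UMIs per cell of all genes were 16639 in hypoxia and 23304 in normoxia. Gbe1 had 29.95 CPM in 48 h hypoxia and 36.0 CPM in normoxia, a log2 ratio of −0.26 that turned to 0.23 with TMM factors. Neither gene differed by 1.5-fold under any of the 9 alternatives tried, and the sign of both depended on the scaling.

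Pgm1 had 80.3 CPM in 48 h hypoxia and 61.9 CPM in normoxia, a log2 ratio of 0.37, below 1.5-fold, which became 0.87 with TMM factors. Pgm2 fell to 5.43 CPM in 48 h hypoxia (4.92 to 5.98), against 14.5 CPM in normoxia (13.6 to 15.5), a plain ratio of 0.373 (0.332 to 0.420). Ugp2 fell to 39.7 CPM in 48 h hypoxia (38.3 to 41.1), against 95.5 CPM in normoxia (93.1 to 97.9), a plain ratio of 0.416 (0.398 to 0.435). The log2 ratios of −1.27 for Pgm2 and −1.24 for Ugp2 lay below the median of all genes, and with TMM factors they were −0.83 and −0.75, still past 1.5-fold. Ugp2 was lower in hypoxia at both ages, by less at 16 h than at 48 h, and its normoxic levels of 95.5 CPM at day 10 and 96.5 CPM at day 8 were alike.

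Pygl had 1.85 CPM in 48 h hypoxia (142 UMIs) and 3.73 CPM in normoxia (232 UMIs), a log2 ratio of −0.73 that was −0.38 with TMM factors. The direction of Pygl was thus opposite at the 2 ages. Pygb had 53.8 CPM in 48 h hypoxia and 62.4 CPM in normoxia, a log2 ratio of −0.21 that turned to 0.28 with TMM factors. Gyg had 30.6 CPM in 48 h hypoxia and 26.6 CPM in normoxia, a log2 ratio of 0.20 that passed 1.5-fold with TMM factors (0.68). Ppp1r3c had 2.80 CPM in 48 h hypoxia (215 UMIs) and 1.29 CPM in normoxia (80 UMIs), a plain ratio of 2.18 (1.68 to 2.85). Among the 9 genes, only Ppp1r3c was at least 1.5-fold higher in hypoxia at both ages by library totals, from few UMIs. With a pseudocount of 10 CPM its log2 ratio fell short of 1.5-fold at day 10 too (0.18). With TMM factors Pgm1 also passed 1.5-fold at both ages.

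The ratio at day 10 minus the ratio at day 8 gives the difference between the exposures, though age, exposure length and library go together and cannot be told apart. On the plain log2 scale it was −2.43 for Gys1 (−2.56 to −2.30), −2.52 for Gbe1 (−2.62 to −2.41) and −1.11 for Pgm1 (−1.18 to −1.04). It was −2.76 for Pygl (−3.15 to −2.36) and −1.45 for Pgm2 (−1.66 to −1.25). Ppp1r3c gave 0.06, with an interval of −0.39 to 0.50 that spans 0. The label checks Slc2a1, Egln3 and Pdk1, above, were higher in hypoxia at day 10 by plain ratios of 4.92, 5.61 and 1.79. At day 8 their plain ratios were 2.32, 8.61 and 3.70, so Egln3 and Pdk1 also had smaller ratios at day 10. In the same day 10 libraries Gys1 had a plain ratio of 0.998 (0.927 to 1.07).

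**Figure D2:**
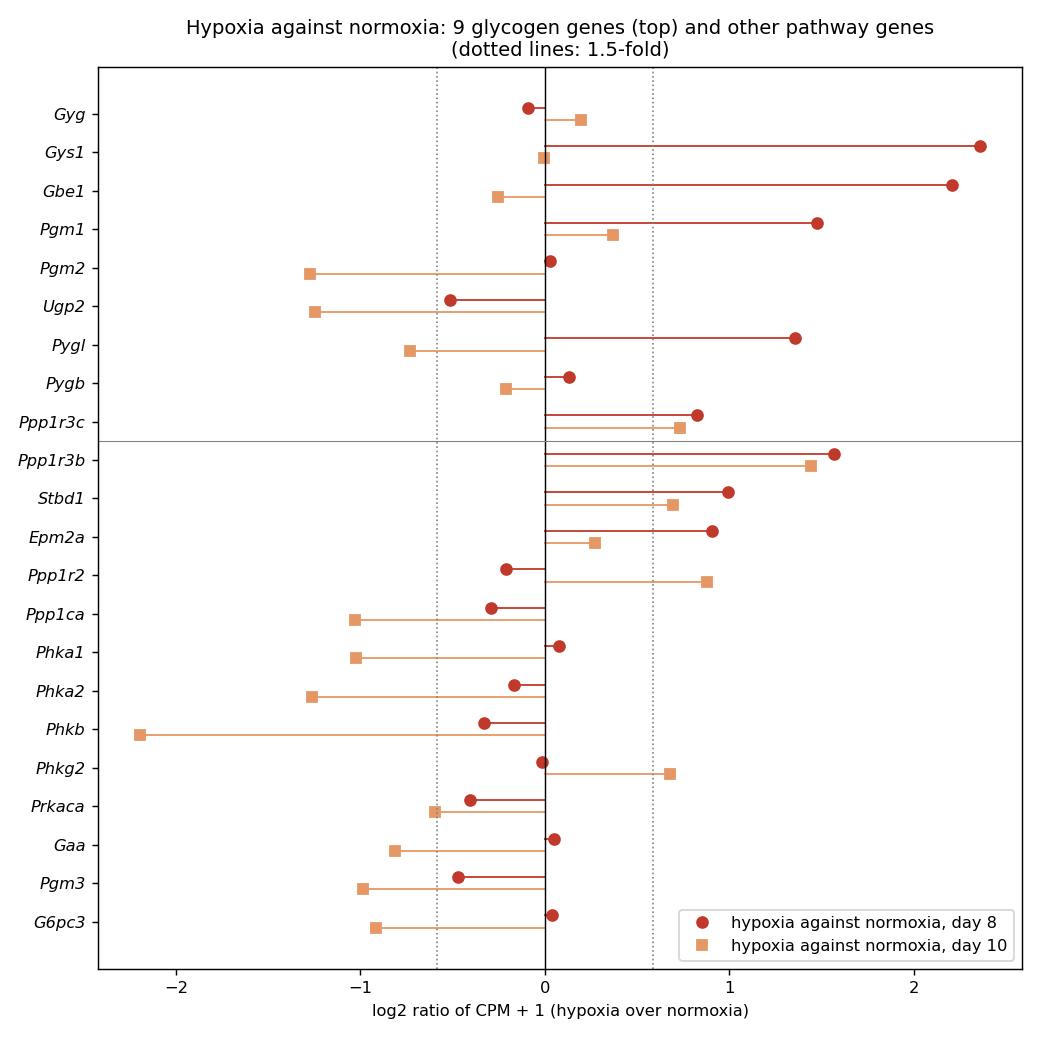
Log2 ratio of CPM + 1 of hypoxia over normoxia at day 8 (circles) and day 10 (squares) for the 9 members (above the line) and for other genes of glycogen handling (below it), with dotted lines at 1.5-fold. Gys1 is at 2.36 at day 8 and at −0.00 at day 10, while Ppp1r3b and Stbd1 are to the right of the 1.5-fold line at both ages.

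Between the normoxic libraries, day 10 against day 8, the members above 5 CPM moved little. Of the 7 members above 5 CPM, 0 rose and 0 fell, with a median of 0.10, beside 7.94% of all genes higher and 8.22% lower. Their ratios ran between −0.43 for Pgm1 and 0.43 for Gbe1. The low gene Pygl had 3.73 CPM at day 10 and 1.95 CPM at day 8, a plain ratio of 1.91 (1.56 to 2.35). Ppp1r3c had 1.29 CPM at day 10 and 2.36 CPM at day 8, a plain ratio of 0.545 (0.415 to 0.709). Its log2 ratio was −0.56, and −0.83 at its lowest among the 9 alternatives. For Gys1 the log2 ratio between the normoxic libraries was 0.17, far below the 2.36 of 16 h hypoxia against normoxia.

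A list of 34 other genes of glycogen handling was measured in the same way, and 23 of them averaged 5 CPM or more. After 16 h of hypoxia 3 of the 23 rose and 0 fell, with a median of −0.01. Over all genes tested 4.59% were higher and 10.0% lower, with a median of −0.11. The 3 were Ppp1r3b, Stbd1 and Epm2a. Ppp1r3b, which like Ppp1r3c targets protein phosphatase 1 to glycogen, had 14.0 CPM in 16 h hypoxia, against 4.06 CPM in normoxia, a log2 ratio of 1.57. Stbd1, which tethers glycogen to membranes, had 25.03 CPM in 16 h hypoxia, against 12.1 CPM in normoxia, a log2 ratio of 1.00. Epm2a encodes laforin, a glycogen phosphatase, and had 17.3 CPM in 16 h hypoxia, against 8.78 CPM in normoxia, a log2 ratio of 0.90.

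After 48 h of hypoxia 4 of the 23 rose and 8 fell, with a median of −0.36. Over all genes tested 10.4% were higher and 44.1% lower, with a median of −0.46, so the share of the list that fell was below the background. Ppp1r3b remained higher, with 19.8 CPM in 48 h hypoxia, against 6.65 CPM in normoxia, a log2 ratio of 1.44. Stbd1 had 20.2 CPM in 48 h hypoxia, against 12.1 CPM in normoxia, a log2 ratio of 0.70, and 0.45 at its lowest among the 9 alternatives. The other genes that rose were Ppp1r2, an inhibitor of protein phosphatase 1 (log2 ratio 0.88), and Phkg2, a catalytic subunit of phosphorylase kinase (0.68). Phkb, a regulatory subunit of the same kinase, fell to 12.5 CPM in 48 h hypoxia, against 60.8 CPM in normoxia (log2 ratio −2.19), and had 54.2 CPM in 16 h hypoxia, against 68.3 CPM in normoxia (−0.33). Phka2 (−1.26) and Phka1 (−1.02), which encode its alpha subunits, also fell at 48 h. So did the phosphatase catalytic subunit Ppp1ca (−1.03), Pgm3 (−0.99), the glucose 6-phosphatase G6pc3 (−0.91), the lysosomal glucosidase Gaa (−0.81) and Prkaca, a catalytic subunit of protein kinase A (−0.59). With TMM factors, 7 of the 23 were higher and 2 lower. The share of all genes called with TMM factors was not counted, so the 10.4% and 44.1% are no background for these counts. Of the 8 genes that fell, only Phkb and Phka2 passed 1.5-fold under all 9 alternatives.

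The tissue isoforms of the pathway were low in the whole libraries. Gys2, the liver glycogen synthase, had 3 to 7 UMIs in each library, and Pygm, the muscle phosphorylase, had 0.782 CPM in 16 h hypoxia and 1.22 CPM in normoxia of day 8. Pygm was higher at day 10, with 2.40 CPM in 48 h hypoxia and 3.54 CPM in normoxia. Neither isoform reached the mean of 5 CPM.

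Cells were grouped into 21 clusters without the hypoxia, glycolysis and glycogen genes, and the clusters were named by markers into 7 classes. The mesenchymal-like class merges clusters that best matched the mesenchymal, the contractile (smooth muscle) or the mesothelial or epicardial marker list. Mesenchymal-like cells made up 86.2% of cells in 16 h hypoxia and 84.5% in normoxia of day 8, and 93.5% in 48 h hypoxia and 89.4% in normoxia of day 10. The rest were endoderm-like, erythroid-like, macrophage-like, megakaryocyte-like, cardiomyocyte-like and endothelial-like cells, and no cluster matched the pluripotent list best. At day 8, mesenchymal-like clusters 0, 7, 9, 11 and 13 held cells of both libraries, while cluster 3 was mostly hypoxic (1035 cells, against 33 in normoxia) and cluster 6 mostly normoxic (96 hypoxic cells, against 728). At day 10 the class lay in clusters 1, 2, 4 and 5 in hypoxia and mainly in clusters 0, 8, 10 and 14 in normoxia, so a comparison within it sets different cell states side by side. Cluster 17, placed in this class through the contractile (smooth muscle) list, had cells of low depth (median 2845 UMIs). Values within classes can also hold RNA that floated free in the cell suspension, whose share was not measured.

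The day 8 rise of Gys1, Gbe1 and Pgm1 was seen in every class that had at least 30 cells in both libraries. In mesenchymal-like cells Gys1 had 105 CPM in 16 h hypoxia, against 17.3 CPM in normoxia, a plain ratio of 6.06 (5.70 to 6.44). In endoderm-like cells it had 69.7 CPM in 16 h hypoxia, against 22.6 CPM in normoxia, and in macrophage-like cells 69.0 CPM, against 33.4 CPM. In erythroid-like cells, 154 in hypoxia and 109 in normoxia, it had 30.7 CPM in hypoxia, against 14.6 CPM. The ratios were 3.08 in endoderm-like, 2.06 in macrophage-like, 2.10 in erythroid-like and 2.75 in megakaryocyte-like cells. The level of Gys1 at 16 h was thus highest in the mesenchymal-like class and lowest in the erythroid-like class.

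Gbe1 had a different order of classes. Its highest level stood in endoderm-like cells, with 179 CPM in 16 h hypoxia, against 29.5 CPM in normoxia, a plain ratio of 6.06 (5.18 to 7.12). Macrophage-like cells had 149 CPM in 16 h hypoxia, against 29.1 CPM in normoxia, and megakaryocyte-like cells, 31 in hypoxia and 35 in normoxia, had 136 CPM, against 25.1 CPM. Mesenchymal-like cells had 123 CPM in 16 h hypoxia, against 25.4 CPM in normoxia. The normoxic levels of Gbe1 in these 4 classes lay between 25.1 and 29.5 CPM, so the order came from the hypoxic library. Pygl rose in mesenchymal-like cells (6.58 CPM in 16 h hypoxia, against 1.45 CPM in normoxia, a plain ratio of 4.54). In endoderm-like cells it had 5.08 CPM in 16 h hypoxia and 4.56 CPM in normoxia, from 25 and 30 UMIs.

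At day 10 Gys1 had 20.7 CPM in mesenchymal-like cells of 48 h hypoxia and 20.4 CPM in those of normoxia, and 19.96 CPM and 20.5 CPM in macrophage-like cells of hypoxia and normoxia. In endoderm-like cells it had 22.4 CPM in hypoxia (18 UMIs) and 33.3 CPM in normoxia (45 UMIs), a plain ratio of 0.674 (0.367 to 1.19). Gbe1 had 28.8 CPM in mesenchymal-like cells of 48 h hypoxia and 35.9 CPM in those of normoxia, a plain ratio of 0.802 (0.754 to 0.853). In macrophage-like cells Gbe1 had 61.8 CPM in 48 h hypoxia (119 cells), against 38.6 CPM in normoxia (183 cells), a plain ratio of 1.60 (1.23 to 2.07). In the same cells Ppp1r3b had 31.2 CPM in 48 h hypoxia, against 4.21 CPM in normoxia, a plain ratio of 7.41. The plain ratio of Ppp1r3b was 3.04 in mesenchymal-like cells and 0.539 (0.210 to 1.23) in endoderm-like cells, from 8 and 25 UMIs. That of Stbd1 was 1.68 in mesenchymal-like cells and 0.551 (0.298 to 0.968) in endoderm-like cells, from 17 and 52 UMIs. The endoderm-like cells thus lay on the other side of the library total for Stbd1, while the interval of Ppp1r3b spanned 1. The 61 hypoxic endoderm-like cells had a median of 6358 UMIs, against 19027 in the 67 normoxic ones. Ugp2, which fell in mesenchymal-like cells to 39.2 CPM in 48 h hypoxia, against 98.5 CPM in normoxia, had 73.6 CPM in hypoxic macrophage-like cells and 60.1 CPM in normoxic ones. Whether these ratios differ between the classes was not tested, since each rests on 1 library per group.

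**Figure D3:**
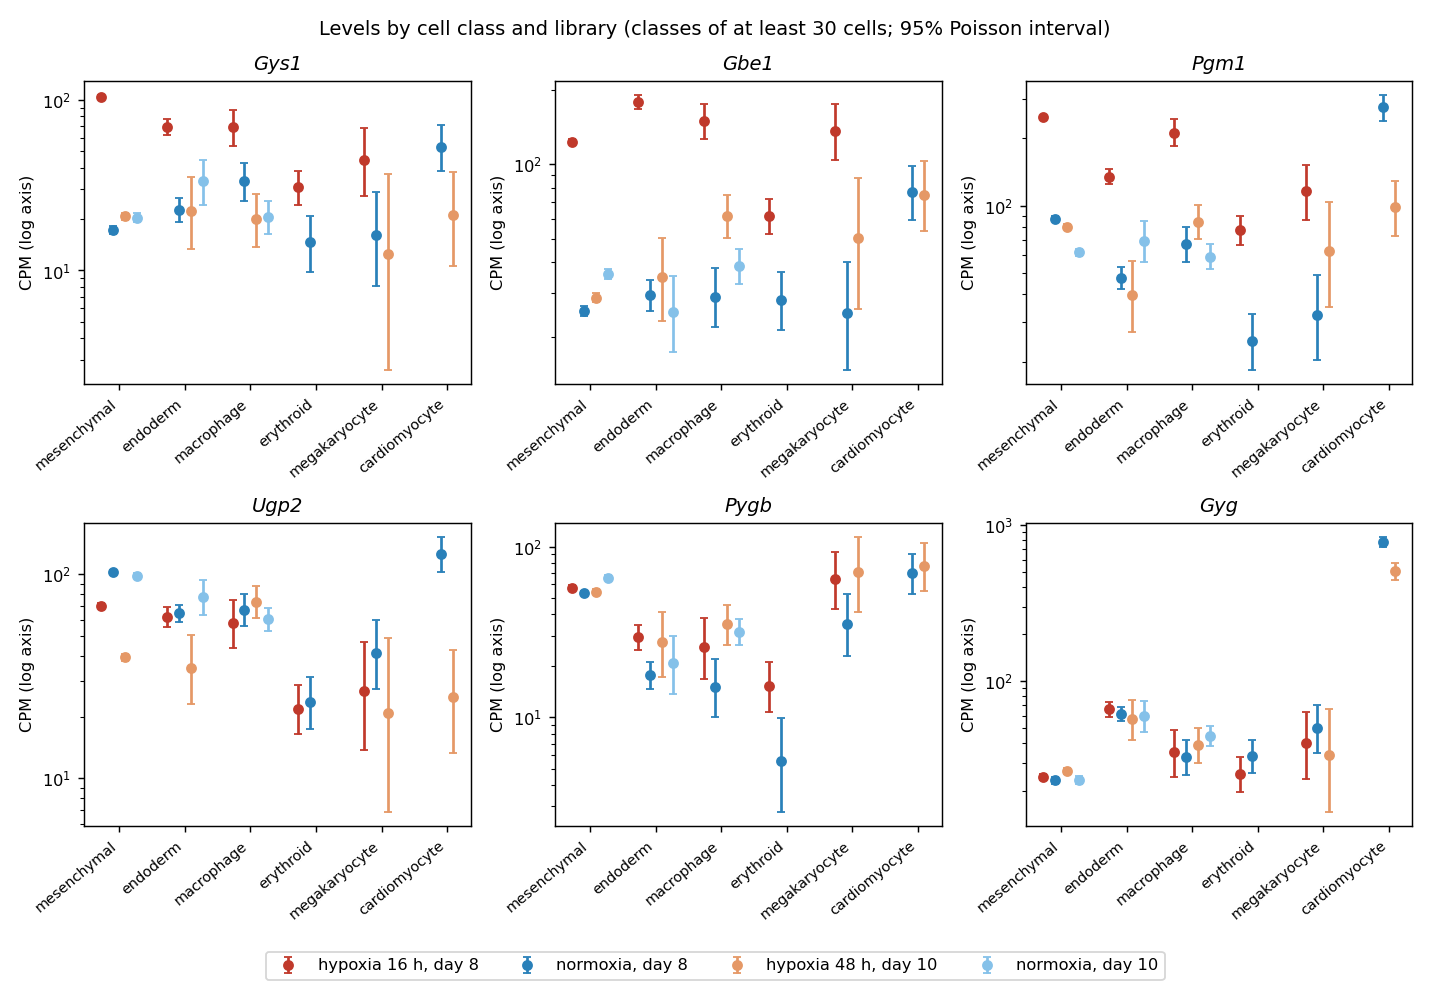
Level of 6 glycogen genes by cell class and library (CPM of UMIs summed over the class, log axis, 95% Poisson interval), shown where a class had at least 30 cells in a library. For Gys1, the 16 h hypoxic point of the mesenchymal class is at 105 CPM, against 17.3 CPM in normoxia, and for Gyg the cardiomyocyte class stands apart at 507 CPM in 48 h hypoxia and 777 CPM in normoxia of day 8.

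Gyg differed between cell classes far more than between libraries. In cardiomyocyte-like cells it had 507 CPM in 48 h hypoxia (447 to 572, 43 cells and 263 UMIs) and 777 CPM in normoxia of day 8 (718 to 840, 33 cells and 635 UMIs). The 33 normoxic cells held 21.9% of all Gyg UMIs of their library. In mesenchymal-like cells Gyg had 24.3 CPM in 16 h hypoxia, against 23.3 CPM in normoxia of day 8, and 26.8 CPM in 48 h hypoxia, against 23.3 CPM in normoxia of day 10. In endoderm-like cells it had 66.2 CPM in 16 h hypoxia and 61.7 CPM in normoxia. The cardiomyocyte-like cells of the other libraries numbered 25 in 16 h hypoxia and 9 in normoxia of day 10, under the minimum of 30 cells. The log2 ratio of Gyg between the normoxic libraries, −0.35 over all cells, was 0.00 in mesenchymal-like cells alone.

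Other members also stood high in normoxic cardiomyocyte-like cells of day 8. Pgm1 had 275 CPM there (241 to 314), against 87.3 CPM in mesenchymal-like cells of the same library. Gys1 had 52.6 CPM in them, against 17.3 CPM in mesenchymal-like cells, and Gbe1 had 77.1 CPM, against 25.4 CPM. Ppp1r3c had 24.5 CPM, from 20 UMIs, against 2.24 CPM. Pygl had 11.01 CPM, from 9 UMIs, against 1.45 CPM in mesenchymal-like cells. The remaining members lay less than 1.5-fold apart. Ugp2 had 126 CPM in cardiomyocyte-like cells, against 103 CPM in mesenchymal-like cells. Pygb had 69.8 CPM, against 53.4 CPM, and Pgm2 had 11.01 CPM, against 12.7 CPM. In the 43 cardiomyocyte-like cells of 48 h hypoxia, Gys1 had 21.2 CPM (11 UMIs), against 20.7 CPM in mesenchymal-like cells. Pgm1 had 98.2 CPM there, against 80.6 CPM, so both lay less than 1.5-fold apart. Gbe1 had 75.1 CPM, against 28.8 CPM. Ppp1r3c had 17.3 CPM (9 UMIs), against 2.74 CPM, and Pygl had 7.71 CPM (4 UMIs), against 1.62 CPM.

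Over the single clusters, 11 had at least 30 cells in both day 8 libraries. Gys1 rose in 11 of the 11, with log2 ratios between 1.02 and 2.81, Gbe1 in 11 of the 11 (1.10 to 2.58) and Pgm1 in 11 of the 11 (1.21 to 1.80). Pygl rose in 9 and Ppp1r3c in 8 of the 11, from few UMIs per cluster. Ugp2 was above its normoxic level in 0 of the 11 and fell in 5. Cluster 3, mostly hypoxic and best matched to the mesothelial or epicardial list, had the highest Gys1 level. Its Gys1 level was 137 CPM in 16 h hypoxia, against 18.7 CPM in its 33 normoxic cells. Over the clusters with at least 30 cells, Gys1 had a lowest level of 27.5, a median of 74.4 and a highest level of 137 CPM in 16 h hypoxia (12 clusters), against 13.5, 18.8 and 52.6 CPM in normoxia of day 8 (12 clusters). At day 10 the median was 20.4 CPM in 48 h hypoxia and 20.5 CPM in normoxia (9 clusters each). Only 3 clusters, namely 12, 15 and the low-depth cluster 17, had at least 30 cells in both day 10 libraries. Gbe1 was above its normoxic level in 3 of the 3 (log2 ratios 0.08 to 0.66), and so was Pygb (0.14 to 0.98). Gys1 was above it in 1 of the 3 (−0.55 to 0.15) and Pgm1 in 2 (−0.79 to 0.51).

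Likeness to a member was taken as Pearson's r of log2(CPM + 1) over the 42 sums of 1 cluster in 1 library with at least 30 cells, among 6464 genes that averaged 20 CPM or more. These points share libraries and their depth, so r is a description only. The genes most like Gys1 were Pfkl (r = 0.864), Pgm1 (0.833) and Fam162a (0.832). Those most like Gbe1 were Map2k1 (0.837), Khnyn (0.830) and Mthfd1l (0.819). Pgm1 was most like Gys1, Fam162a (0.790) and Pdk1 (0.779). Gys1 and Gbe1 gave 0.79 with each other, and Gys1 gave 0.60 with Pygl and 0.00 with Gyg. Gyg was most like the heart muscle genes Myl7 (0.760), Actc1 (0.721) and Atp2a2 (0.673). Cardiomyocyte-like sums of Gyg stood at 777 CPM in normoxia of day 8 and 507 CPM in 48 h hypoxia. The cluster medians of those libraries were 26.5 and 33.3 CPM, so few sums weigh heavily in these r values. Ugp2 was most like Rfc1 (0.884), Evl (0.875) and Ppdpf (0.866), and Pygb was most like Mmd (0.810), Inpp5a (0.757) and Qsox1 (0.747). Gys1 and Pgm1 thus stood in each other's list of 3, while Gbe1, Gyg, Ugp2 and Pygb had no member in theirs.

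**Figure D4:**
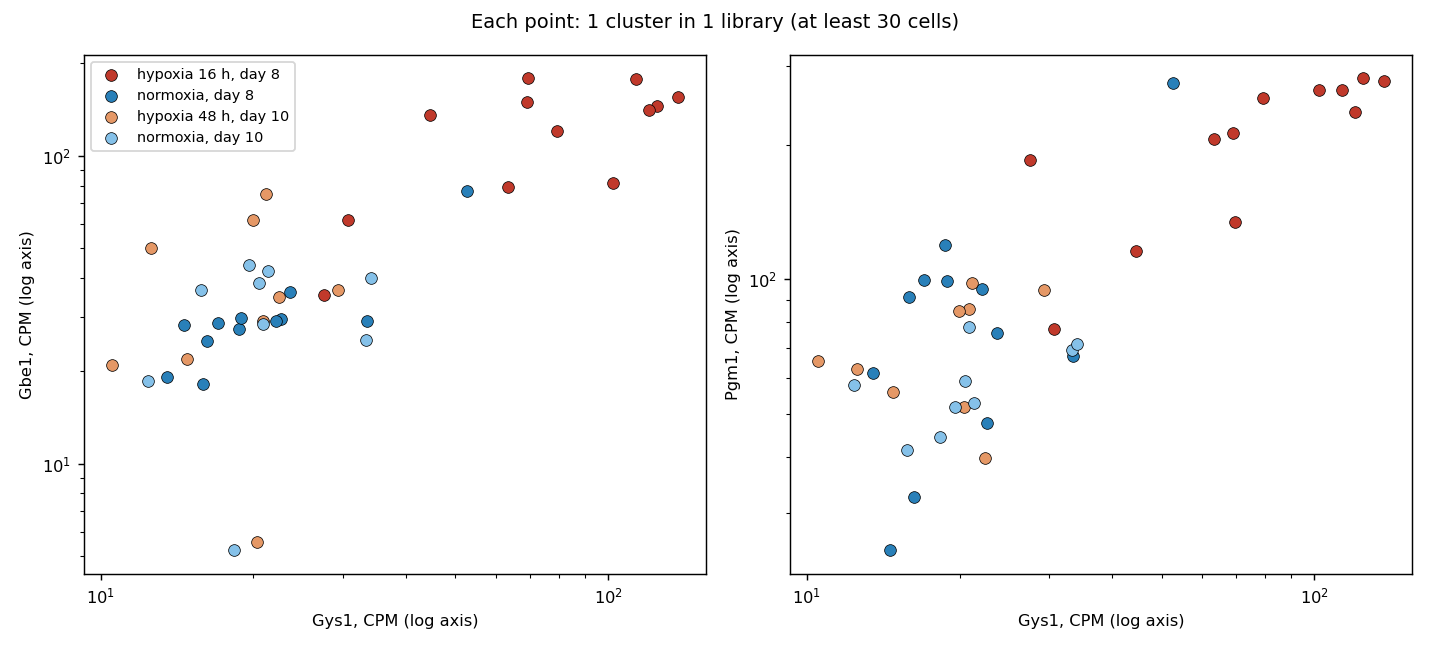
Level of Gbe1 (left) and Pgm1 (right) against Gys1, in CPM on log axes, with 1 point for each cluster in each library (42 sums of at least 30 cells). The 16 h hypoxic points lie mostly to the right, at 27.5 to 137 CPM of Gys1, and the 48 h hypoxic points, at 10.5 to 29.4 CPM, lie among the normoxic ones.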

How the data were processed

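The 4 single-cell libraries (16 h hypoxia, normoxia of day 8, 48 h hypoxia and normoxia of day 10) were deposited as UMI counts per gene and barcode, made by the authors with Cell Ranger 7.1.0 and mm10, per the submitters' processing notes. Gene positions came from GENCODE M21 for mm10, matched by gene ID (32235 of 32285 IDs), and promoters from RefSeq. Barcodes were kept that had 500 genes or more and no more than 15% mitochondrial UMIs. Scrublet called 0.0217% to 0.336% of them as doublets, which were removed, and how many doublets were left was not measured. Pairs of libraries shared 1 to 5 barcodes.

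UMIs were summed over cells and scaled to CPM by the library total. Ratios are log2 of CPM + 1, with exact Poisson intervals for levels and exact conditional binomial intervals for plain ratios (95%, counting error only, computed with scipy 1.17.1). At least 1.5-fold was the call, and lists were counted over genes averaging 5 CPM or more in the 4 libraries. The calculation was tested on simulated data. Cells were clustered with scanpy 1.11.5 (2000 variable genes, 30 principal components, 15 neighbours, Leiden resolution 1), and clusters were named from marker lists. Mesenchymal clusters were scored against cells of the other named classes, a rule chosen after the clusters were seen. The named genes are the 9 members, the other pathway genes at least 1.5-fold different in either hypoxia comparison, Gys2 and Pygm, the 3 genes most like each member that averaged 20 CPM or more, and Slc2a1, Egln3 and Pdk1. One further gene that the rule names is counted in the lists but not reported here. The members and lists were chosen with earlier results of these data known. Alternatives were TMM factors (edgeR 4.0.16), a total without mitochondrial and ribosomal protein genes, centring on all genes, equal weight per cell, pseudocounts of 0.1 and 10 CPM, all barcodes, stricter cell filters, mesenchymal-like cells alone, and other minimum levels.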

Additional observations from a re-analysis of the deposited data

Results flagged for a closer look

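The genes looked at were the members and the reported pathway genes averaging 5 CPM or more. For 6 of them the hypoxia ratio had opposite signs at the 2 ages, with both counting intervals excluding a plain ratio of 1. Each group had 1 library, and the difference was not tested. The values are the log2 ratio at day 10 (48 h) minus the log2 ratio at day 8 (16 h). Among the members they were −2.47 for Gbe1, −2.09 for Pygl, −0.34 for Pygb and 0.28 for Gyg. For Gbe1 and Pygb the day 10 sign turned with TMM factors, and for Gyg the day 8 sign turned in 3 of 9 alternatives. Gbe1 and Pygb were also above their normoxic levels in each of the 3 clusters compared at day 10. In the endoderm-like cluster the intervals spanned 1 (plain ratios of 1.39, 0.810 to 2.36, and 1.32, 0.721 to 2.40). In mesenchymal-like cells, 93.5% of cells in 48 h hypoxia, both were lower than in normoxia. Their plain ratios there were 0.802 (0.754 to 0.853) for Gbe1 and 0.829 (0.792 to 0.867) for Pygb. Among the other pathway genes they were 1.09 for the phosphatase inhibitor Ppp1r2 and −0.69 for Pgm2l1, a relative of the phosphoglucomutases. The day 8 sign of Ppp1r2 held in 8 of 9 alternatives (0.016 at its highest). The day 10 sign of Pgm2l1 also held in 8 of 9 (0.0036 at its highest).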

How the results depend on the processing

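Of 198 counts and medians recomputed under the alternatives, 174 stayed within 1.5 times (counts) or within the binomial interval of the median. The other 24 moved. With 7 members that interval ran from the lowest to the highest member (−0.52 to 2.36 at day 8). The members' medians could thus hardly leave it, and their staying says little. At day 8, 5 members rose with no minimum level, and of the other pathway genes 5 rose with TMM factors, 0 with a minimum of 20 CPM, and 1 fell with no minimum, with a median of 0.20 under TMM. At day 10, 2 members rose with TMM factors and 2 with centring on all genes, 1 rose with no minimum and 1 fell with a minimum of 20 CPM. Of the other genes at day 10, 7 rose with TMM factors and 7 with centring, 2 with a pseudocount of 10 CPM and 1 with a minimum of 20 CPM, while 2 fell with TMM, 2 with centring and 5 with a minimum of 20 CPM. Between the normoxic libraries, 1 member rose with no minimum. There 2 other genes rose with TMM, 2 without mitochondrial and ribosomal protein genes, 2 with centring, 2 with no minimum, 0 with a pseudocount of 10 CPM and 0 with a minimum of 20 CPM, and 2 fell with no minimum. Other minimum levels change which genes are counted, and the cause of the other moves was not tested. The share of all genes called was not recounted under the alternatives, so these counts have no background beside them. At day 8 the ratios of Gys1 (1.94 to 2.58), Gbe1 (1.90 to 2.43) and Pgm1 (1.38 to 1.70) kept their call under all 9 alternatives. No paired analysis was possible because each group has 1 library, and for the same reason no library could be left out. Depth limits Pygl and Ppp1r3c, with 80 to 510 UMIs per library.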
